A study of Mus musculus with 18 samples.

Results

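To describe how macrophages with the K730R substitution in TLR4 differ before any stimulus is given, unstimulated peritoneal macrophages of TLR4-K730R mice were compared with those of TLR4-WT mice across all genes. The comparison takes 6 of the 18 RNA-seq libraries of the series, namely the 3 TLR4-K730R and the 3 TLR4-WT libraries labelled as control, and no measured value entered that choice. TLR4-K730R mice carry a CRISPR/Cas9 knock-in on the C57BL/6 background in which the lysine at residue 730 of TLR4 is replaced by arginine, and TLR4-WT mice carry the lysine. Macrophages were drawn from the peritoneal cavity of thioglycolate-injected mice by lavage, and no step that purifies them further is named. The remaining libraries, used below only to place the same genes, are the control cells of TLR4-K810R mice, a second knock-in with arginine at residue 810, and macrophages of each genotype given LPS at 100 ng/ml for 6 h, each group again with 3 libraries. The labels give neither age nor sex, and they do not say whether libraries of a group came from separate animals, so p-values measure the spread among these libraries, which may be technical.

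TLR4 is the receptor for bacterial lipopolysaccharide. Through the adaptors MAL and MyD88 it activates NF-κB and inflammatory cytokine genes, and through TRAM and TRIF it activates IRF3 and the production of interferon β. Secreted type I interferon then acts on the same and neighbouring cells through JAK kinases and a transcription factor complex that holds STAT2 and IRF9, which binds the interferon-stimulated response element and switches on antiviral genes. Resting macrophages hold part of this antiviral program at a low tonic level. The substituted lysine lies in the cytoplasmic TIR domain, which binds the adaptors, and is one of the acetylated residues on which the study turns.

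Tlr4 (ENSMUSG00000039005) lies at chr4:66827584-66930284 of GRCm38 on the plus strand, and codon 730 lies in the last of the 3 exons of the reference transcript, at chr4:66841159-66841161. The reference codon with its neighbours, read from the GRCm38 genome at chr4:66841144-66841176, is shown because it is the base triplet the mice differ in; its capitals mark codon 730, which encodes lysine.
Tlr4 codon 730: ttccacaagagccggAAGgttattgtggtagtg
A knock-in of this kind does not remove the transcript, so the level of Tlr4 cannot check the genotype labels. Tlr4 measured 11.6, 14.2 and 9.34 FPKM (fragments per kilobase of transcript, scaled to the fragments of the library) in the TLR4-WT control libraries and 12.1, 9.31 and 9.86 FPKM in the TLR4-K730R control libraries. These ranges overlapped, and the difference was -0.15 on the log2(FPKM + 1) scale (SE 0.15, limma adjusted p = 0.9).

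Each library listed FPKM for transcript events in 84056 to 89344 rows, with 10442 to 10935 genes above 0. Read counts are not part of these tables, which leaves the depth of each library unknown and allows no counting interval. A gene can be listed at 0 while its transcript is present, because an event that was not estimated has no row. Cd14, Isg15 and Socs3, for example, had no value above 0 in the 6 libraries. Over 8940 genes, the correlation of log2(FPKM + 1) was 0.966 to 0.972 among TLR4-WT control libraries, 0.968 to 0.970 among TLR4-K730R control libraries and 0.959 to 0.969 between the genotypes, and these genes are not independent. Macrophage genes were at like levels in both groups. Adgre1, which encodes F4/80, measured 209, 199 and 254 FPKM in TLR4-WT and 216, 184 and 195 FPKM in TLR4-K730R, and Csf1r, the receptor for M-CSF, measured 538, 497 and 479.6 and 529, 451 and 536 FPKM. None of the 16 tested macrophage genes was called, with 2 lower and 0 higher at an unadjusted limma p under 0.05 and a median difference of 0.02.

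A library property that moved with genotype was a set of intestinal epithelial transcripts. Of 40 listed intestinal genes, 4, 6 and 6 were above 0 in the TLR4-WT control libraries against 39, 34 and 27 in the TLR4-K730R control libraries. These are the list members above 0 anywhere in the series. All 40 were above 0 in some TLR4-K730R control library, and 7 in some TLR4-WT control library. The list was written with earlier results of these data known, so the counts are a description. The summed level of the 40 genes was 43.7, 36.6 and 48.2 FPKM in TLR4-WT and 163, 151 and 117 FPKM in TLR4-K730R. Most of the TLR4-WT sum was Lyz1, which went the other way and can share reads with the macrophage gene Lyz2. In the sum, every TLR4-K730R control library was above every TLR4-WT one. Because this signal divided the control libraries exactly as genotype did, its part in any difference below cannot be told apart from that of genotype. A second property concerns the LPS libraries. Library 3 of TLR4-WT correlated at 0.970 with libraries 1 and 2 of TLR4-K730R but at 0.966 and 0.962 with libraries 1 and 2 of its own group, over 9707 genes. Library 3 of TLR4-K730R in turn correlated at 0.969 and 0.974 with libraries 1 and 2 of TLR4-WT and at 0.966 and 0.963 with its own group. Results that use LPS libraries are therefore given with all libraries and again without these 2, an alternative added after the data were seen.

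Differences between unstimulated TLR4-K730R and TLR4-WT macrophages were few, and most genes called in the fit of all 18 libraries were interferon-stimulated genes lower in TLR4-K730R. Of 9707 genes tested, 26 were called at the adjusted p threshold of 0.01 given in the study's methods, which is 0.268% of genes. Of these, 21 were lower in TLR4-K730R (0.216%) and 5 were higher (0.0515%). An adjusted p below 0.05 was reached by 51 genes (0.525%), 40 lower (0.412%) and 11 higher (0.113%). An unadjusted p under 0.05 was reached by 374 lower (3.85%) and 373 higher genes (3.84%), 7.7% of those tested together. The median difference over all genes was 0.03 on the log2 scale with an SD of 0.33, and 91.1% of genes differed by less than 0.5. Differences below -1 were found for 70 genes, of which 25 are in the interferon lists, and differences above 1 for 61 genes, of which 15 are in the intestinal list. All differences given here are TLR4-K730R minus TLR4-WT in log2(FPKM + 1), and on that scale changes of genes with low values come out too small.

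**Figure D1:**
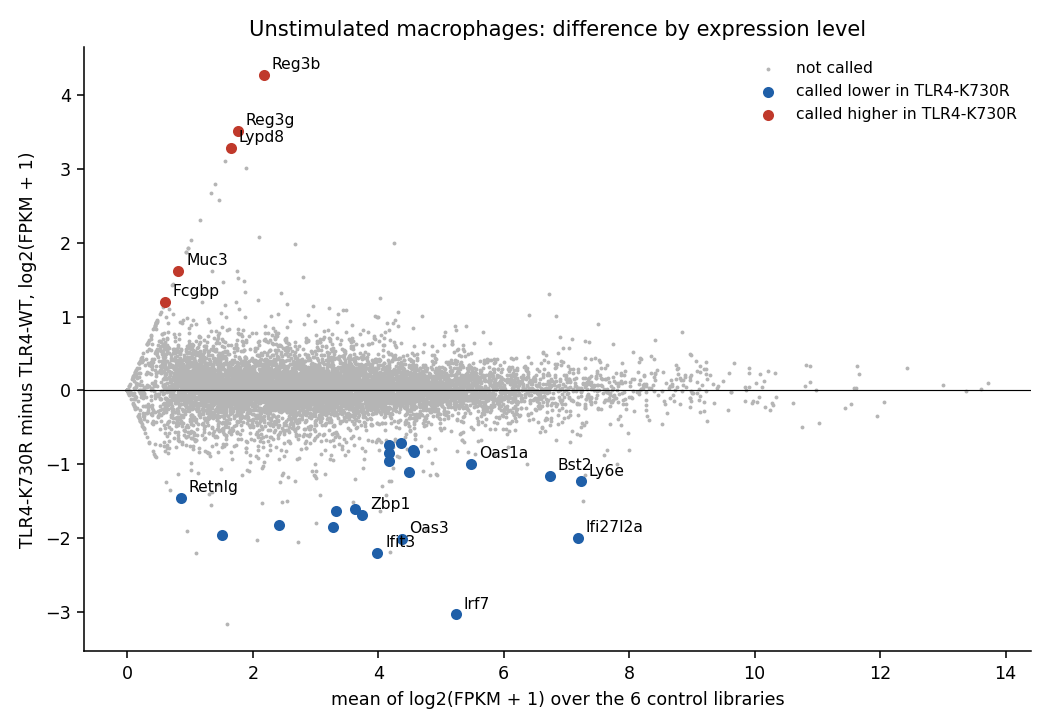
Difference of each of the 9707 genes (TLR4-K730R minus TLR4-WT, control, log2 scale) against its mean log2(FPKM + 1) over the 6 control libraries, 1 point per gene, with called genes coloured and some of them named. The 21 genes called lower reach down to -3.03 for Irf7, and the 5 genes called higher, from Fcgbp to Reg3b, lie between 1.19 and 4.27.

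The count depended on which libraries estimated the spread. It was 42 (7 higher and 35 lower) without LPS library 3 of TLR4-WT and of TLR4-K730R, which enter this comparison only through the shared spread and were left out for standing apart, and 24 of the 26 genes were among the 42. With only the 9 control libraries it was 22 (7 higher and 15 lower), and 13 of the 26 genes were among them. Leaving out 1 of the 6 control libraries gave 11 to 16 calls, the fewest without TLR4-K730R library 2 or TLR4-WT library 3. A group of 10 of the 26 genes was called without each of the 6 libraries in turn, namely Ifit1, Ifit3, Irf7, Oas1a, Oas3, Usp18, Zbp1, H2-M2, Ifi35 and Ly6e. Of these 10, Irf7 (adjusted p = 0.0394), H2-M2 (0.015) and Ifi35 (0.0159) were not called with only the control libraries. With only the 6 libraries compared, 20 genes were called (9 higher and 11 lower), of which 7 are in the intestinal list and 8 are interferon-stimulated, and 9 of the 26 were among them. Of the 10, that fit did not call Irf7 (adjusted p = 0.137), Ifi35 (0.0223), Usp18 or Oas3 (0.0128 for both). At the edge of the threshold, Rnf213 had an adjusted p of 0.00869 and Ube2l6 and Retnlg of 0.00971, while Ccl9 and H2-T24 lay just outside at 0.0103 and Stat2 at 0.0121.

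Irf7, the transcription factor that amplifies type I interferon production and is itself induced by interferon, had the lowest difference among called genes. Irf7 (ENSMUSG00000025498, chr7:141262706-141266481, GRCm38) measured 139.7, 74.6 and 117 FPKM in TLR4-WT and 6.86, 8.82 and 28.7 FPKM in TLR4-K730R. All TLR4-K730R libraries were below all TLR4-WT libraries, although library 3 of TLR4-K730R was well above the other two. The mean in TLR4-WT was 7.47 times that in TLR4-K730R, and the difference was -3.03 (SE 0.36, adjusted p = 0.000371). With only the 6 libraries compared the adjusted p was 0.137. Irf7 was the only called gene among 15 tested genes of interferon production, receptors and signal transduction, whose median difference was -0.13. Stat2, a subunit of the transcription factor complex activated by type I interferon, measured 11.5, 12.96 and 11.8 FPKM in TLR4-WT and 4.86, 3.67 and 6.82 in TLR4-K730R (-1.13, adjusted p = 0.0121). Irf9, the DNA-binding subunit of that complex, had a difference of -0.67 (adjusted p = 0.0733). The receptor and kinase genes were closer to 0: Ifnar1, a chain of the type I interferon receptor, differed by 0.10 (adjusted p = 0.953) and Jak1 by 0.03 (adjusted p = 0.98).

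The IFIT genes, whose products bind the ends of foreign RNA and block its translation, lie side by side on chromosome 19. Ifit3 (ENSMUSG00000074896, chr19:34583531-34588731) measured 29.96, 34.6 and 34.1 FPKM in TLR4-WT and 7.22, 6.002 and 6.01 FPKM in TLR4-K730R. The groups were separated by a wide margin, with a TLR4-WT mean 5.13 times that of TLR4-K730R and a difference of -2.19 (SE 0.16, adjusted p = 2.41e-06). Ifit1 (chr19:34640871-34650009) measured 17.2, 19.4 and 15.9 FPKM in TLR4-WT and 4.19, 4.87 and 3.47 FPKM in TLR4-K730R (-1.84, SE 0.20, adjusted p = 0.000218), again with no overlap. Ifit3b (chr19:34607970-34613401) measured 2.595, 7.23 and 4.89 and 0.952, 0 and 0.511 FPKM (-1.96, adjusted p = 0.00433), but it is a near copy of Ifit3 and reads of the pair may have been split between them. Ifit2 measured 13.1, 13.1 and 11.2 and 3.696, 3.01 and 0.8105 FPKM and missed the threshold (-2.05, adjusted p = 0.0461). Of 5 tested members, 3 were called lower, and the median difference was -1.96 against 0.03 over all genes.

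Promoter windows from 250 bases before to 50 bases after the RefSeq start on GRCm38 were available for 15 of the 21 genes called lower and for 7524 of the tested genes. The core of the interferon-stimulated response element, here taken as a pair of GAAA copies with any 2 bases between them on either strand, was in 6 of the 15 windows (40%), 5 of which held it at least 2 times, and in 242 of the 7524 windows (3.22%). It was also in 16 of 39 windows (41%) of interferon-stimulated genes that were not called, and in 0 of the 5 windows of genes called higher. A GAS-like element, TTCNNNGAA, was in 3 of the 15 windows (20%), in 2 of the 5 windows of genes called higher (40%) and in 490 of the 7524 (6.51%). These shares describe letters in a window, not binding sites. The runs below show elements of 4 genes called lower, each 5′ to 3′ on the strand of the gene, with the matches to the core in capitals. They lie at chr19:34583387-34583436 (plus strand) for Ifit3, chr19:34640784-34640833 (plus strand) for Ifit1, chr5:120777705-120777754 (minus strand) for Oas3 and chr8:71537567-71537616 (minus strand) for Bst2.
Ifit3: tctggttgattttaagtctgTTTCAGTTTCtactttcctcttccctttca
Ifit1: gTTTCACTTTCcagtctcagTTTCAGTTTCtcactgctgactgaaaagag
Oas3: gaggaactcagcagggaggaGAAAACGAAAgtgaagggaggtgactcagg
Bst2: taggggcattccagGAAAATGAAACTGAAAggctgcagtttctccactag
The run of Ifit3 is repeated letter for letter in the Ifit3b window, at chr19:34607783-34607832. The Ifit3 window held 2 matches, and its run shows only the match nearest the start. In Bst2 the matches overlap. The RefSeq start of a window need not be the one in use: it lay within 100 bases of the first exon with the most signal for 79.2% of windows, but 141 bases from it for Bst2, 3001 for Rnf213, 16724 for Muc3, 22995 for Cdk18 and 42591 for Fcgbp.

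Genes of the 2′-5′-oligoadenylate synthetase family, which sense double-stranded RNA and make a second messenger of antiviral defence, were called lower in TLR4-K730R in 2 of 8 tested members, with 5 lower and 0 higher at an unadjusted p under 0.05. Oas3 (ENSMUSG00000032661, chr5:120753098-120777661) measured 41.2, 33.3 and 48.7 FPKM in TLR4-WT and 10.4, 10.04 and 7.69 FPKM in TLR4-K730R. Every TLR4-K730R library was far below the lowest TLR4-WT library, and the difference was -2.01 (SE 0.18, adjusted p = 2.14e-05). Oas1a (chr5:120896256-120907521) measured 61.6, 61.1 and 63.5 FPKM in TLR4-WT and 32.2, 29.1 and 30.4 FPKM in TLR4-K730R, with little spread within either group and a TLR4-WT mean 2.03 times that of TLR4-K730R (-0.999, SE 0.12, adjusted p = 0.000484). Members of this family resemble one another in sequence, so reads may have been shared among them. Oasl2 measured 60.5, 36.7 and 31.3 FPKM in TLR4-WT and 10.6, 8.63 and 9.37 FPKM in TLR4-K730R, without overlap, but missed the threshold (-2.004, adjusted p = 0.0317), as did Oasl1 (-1.22, adjusted p = 0.0205) and Oas2 (-1.24, adjusted p = 0.0252). The summed level of the family was 212, 176 and 187 FPKM in TLR4-WT and 77.3, 72.9 and 70.2 FPKM in TLR4-K730R, and the median difference was -1.11.

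Antiviral effectors made the largest of the interferon lists, with 5 of 28 tested members called lower, 0 called higher and a median difference of -0.72. Mx1, a dynamin-like GTPase that traps viral ribonucleoproteins, measured 7.197, 11.4 and 9.02 FPKM in TLR4-WT and 2.13, 1.49 and 1.94 FPKM in TLR4-K730R (-1.82, SE 0.29, adjusted p = 0.00759). Ifi27l2a, a small interferon-induced membrane protein gene, measured 299, 236 and 345 FPKM in TLR4-WT and 84.2, 73.1 and 60.05 FPKM in TLR4-K730R (-1.997, SE 0.32, adjusted p = 0.00759). Bst2, which encodes the virion tether tetherin, measured 229, 122 and 141 FPKM in TLR4-WT and 75.1, 78.3 and 58.9 FPKM in TLR4-K730R (-1.16, SE 0.19, adjusted p = 0.00759). In each of these genes the highest TLR4-K730R library lay below the lowest TLR4-WT library. Parp12, a mono-ADP-ribosyltransferase, had a smaller difference and a tight spread, at 26.4, 24.6 and 25.4 FPKM in TLR4-WT and 16.4, 14.1 and 15.04 FPKM in TLR4-K730R (-0.71, SE 0.11, adjusted p = 0.00414). Ifi35, an interferon-induced leucine zipper protein gene, measured 22.8, 21.9 and 24.5 FPKM in TLR4-WT and 11.5, 12.6 and 13.03 FPKM in TLR4-K730R (-0.85, adjusted p = 0.000371). Cmpk2, a mitochondrial nucleotide kinase gene, stood at -1.50 (adjusted p = 0.0307). Rtp4, an interferon-induced chaperone of receptor trafficking, had libraries as far apart as those of Ifit3, at 37.6, 41.1 and 35.2 FPKM and 8.41, 7.34 and 6.91 FPKM, yet was not called (-2.19, SE 0.51, adjusted p = 0.0813). Its SE was larger than the 0.16 of Ifit3.

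Among 19 tested sensors of nucleic acids, Zbp1 and Dhx58 were called lower, and the median difference was -0.60. Zbp1 (ENSMUSG00000027514, chr2:173206612-173218923), which binds Z-form nucleic acid and starts inflammatory cell death, measured 22.1, 26.7 and 20.8 FPKM in TLR4-WT and 6.16, 6.09 and 7.25 FPKM in TLR4-K730R. Both groups were tight, and Zbp1 had the lowest adjusted p of the comparison (-1.69, SE 0.11, adjusted p = 7.94e-07). Dhx58, which encodes the RIG-I-like receptor LGP2, measured 26.9, 19.3 and 27.4 FPKM in TLR4-WT and 13.3, 12.2 and 10.6 FPKM in TLR4-K730R (-0.96, SE 0.14, adjusted p = 0.0039). Ddx58, which encodes RIG-I itself, missed the threshold at -1.16 (adjusted p = 0.0667), and Ifi211, a member of the DNA-sensing PYHIN family, at -1.23 (adjusted p = 0.0503). Mavs, the adaptor of the RIG-I-like receptors, differed by -0.15 (adjusted p = 0.971).

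The ISG15 system attaches the ubiquitin-like ISG15 to proteins and removes it. Usp18, which removes ISG15 and also restrains signalling from the interferon receptor, measured 22.6, 23.1 and 16.6 FPKM in TLR4-WT and 6.24, 5.997 and 6.1 FPKM in TLR4-K730R (-1.60, SE 0.18, adjusted p = 0.000217). Ube2l6, the conjugating enzyme for ISG15, measured 31.4, 28.4 and 30.5 FPKM and 16.8, 16.7 and 16.8 FPKM (-0.81, SE 0.14, adjusted p = 0.00971). Both were called among 4 tested genes of the system, while Isg15 was listed at 0 in all 6 libraries and gives no information. Interferon-inducible GTPases, which act on vacuoles that hold pathogens, had 0 of 7 members called by limma, with 5 lower and 0 higher at an unadjusted p under 0.05. Their summed level was nonetheless 45.6, 53.8 and 39.5 FPKM in TLR4-WT and 22.8, 23.6 and 21.6 FPKM in TLR4-K730R, without overlap, and their median difference was -0.83. Gbp2 stood at -0.70 (adjusted p = 0.245), Irgm2 at -0.93 (adjusted p = 0.579) and Irgm1 at -1.15 (adjusted p = 0.635).

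In all, the 71 tested interferon-stimulated genes had 14 members called lower and 0 called higher, with 46 lower and 1 higher at an unadjusted p under 0.05. The count of 14 was 7 without TLR4-K730R library 2, without TLR4-K730R library 3 or without TLR4-WT library 3, 8 without TLR4-WT library 1, and 10 without either of the other two. It was 7 with a replicate block, 8 with only the 6 libraries compared and 23 with library weights. All TLR4-K730R libraries were below all TLR4-WT libraries for 47 of them, where 7.45% of all tested genes were separated in this direction. The reverse held for 1 member, Ifi27 (0.73, adjusted p = 0.579), where 8.91% of all tested genes were separated that way. The median difference of the list was -0.79. Its summed level was 2062, 1847 and 2041 FPKM in the TLR4-WT and 1027, 965 and 918 FPKM in the TLR4-K730R control libraries. Per library, the median of the 21 genes called lower relative to the TLR4-WT mean was -1.21, -1.58 and -1.54 in TLR4-K730R libraries 1 to 3, and between -0.01 and 0.03 in the TLR4-WT libraries. The genes were called on these libraries and centred on TLR4-WT, so the medians follow from that choice and are a description only. In bulk RNA, fewer cells that express a gene and less of its RNA per cell cannot be told apart.

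**Figure D2:**
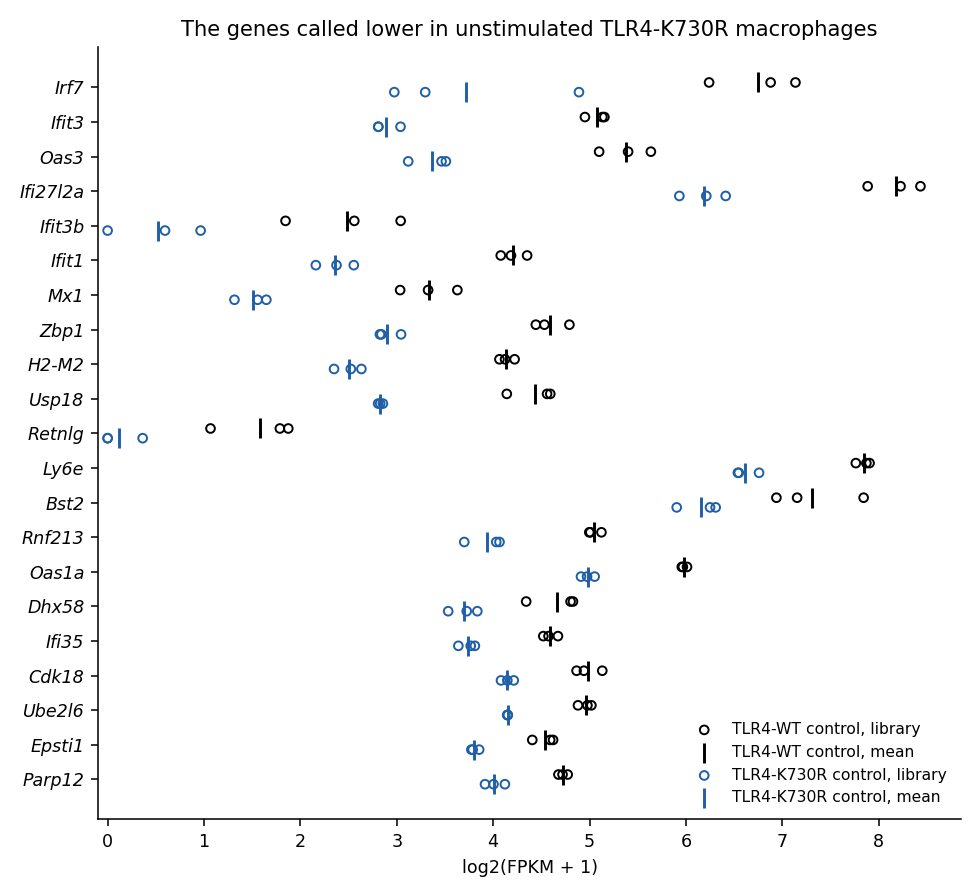
Log2(FPKM + 1) of the 21 genes called lower in each of the 3 TLR4-WT and 3 TLR4-K730R control libraries, 1 circle per library and 1 bar per group mean. The circles of the genotypes do not overlap for any of these genes, and the group means lie farthest apart for Irf7, at -3.03. The genes were called on these same libraries, which favours such a gap, and 7.45% of all tested genes were separated in this direction.

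The other 6 of the 21 genes called lower are outside the interferon lists. Ly6e, a membrane-anchored protein gene known to restrict entry of some viruses, measured 239, 233 and 216 FPKM in TLR4-WT and 107, 92.6 and 92.01 FPKM in TLR4-K730R, and its difference of -1.23 had a small error (SE 0.12, adjusted p = 0.000112). Rnf213, a giant E3 ubiquitin ligase gene, measured 31.2, 33.9 and 30.9 FPKM and 15.8, 15.4 and 12 FPKM (-1.11, SE 0.18, adjusted p = 0.00869). Its direction was not stable: with only first-exon events as the gene value the difference was 1.46 (adjusted p = 0.843). Epsti1 measured 20.2, 23.6 and 23.1 FPKM and 12.8, 13.5 and 12.7 FPKM (-0.73, SE 0.12, adjusted p = 0.00759). These genes, Ly6e, Rnf213 and Epsti1, are known to respond to interferon although no list held them. Cdk18, a cyclin-dependent kinase gene, measured 29.7, 28.1 and 34.1 FPKM and 17.6, 15.9 and 16.7 FPKM (-0.83, SE 0.12, adjusted p = 0.00412). Retnlg, a resistin-like gene of granulocytes, was low throughout, at 1.096, 2.67 and 2.45 FPKM in TLR4-WT and 0.287, 0 and 0 FPKM in TLR4-K730R (-1.46, SE 0.25, adjusted p = 0.00971).

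The sixth gene was H2-M2, a non-classical MHC class I gene. H2-M2 (ENSMUSG00000016283, chr17:37480851-37483552) measured 16.4, 17.7 and 15.7 FPKM in TLR4-WT and 5.204, 4.75 and 4.096 FPKM in TLR4-K730R (-1.64, SE 0.17, adjusted p = 0.000152). It was the only called gene among 18 tested genes of MHC class I and peptide loading, which present peptides to CD8+ T cells and respond to interferon. Of these, 10 were lower at an unadjusted p under 0.05, where 3.85% of all tested genes were. All TLR4-K730R libraries were below all TLR4-WT libraries for 13, where 7.45% of all tested genes were separated in this direction. The median difference of the 18 genes was -0.45. Their reads may be shared, since class I genes are near copies of each other. H2-T24 measured 28.1, 29.8 and 21.98 FPKM in TLR4-WT and 14.8, 12.5 and 14 FPKM in TLR4-K730R (-0.90, adjusted p = 0.0103), and Nlrc5, the transactivator of class I genes, 5.94, 5.39 and 4.92 FPKM and 3.39, 2.94 and 1.86 FPKM (-0.80, adjusted p = 0.0503). The classical genes had differences nearer 0: H2-K1 stood at -0.02 (adjusted p = 0.997) and H2-D1 at -0.18 (adjusted p = 0.791). MHC class II genes had 0 of 10 members called by limma, with 0 lower and 1 higher at an unadjusted p under 0.05 and a median of -0.12.

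**Figure D3:**
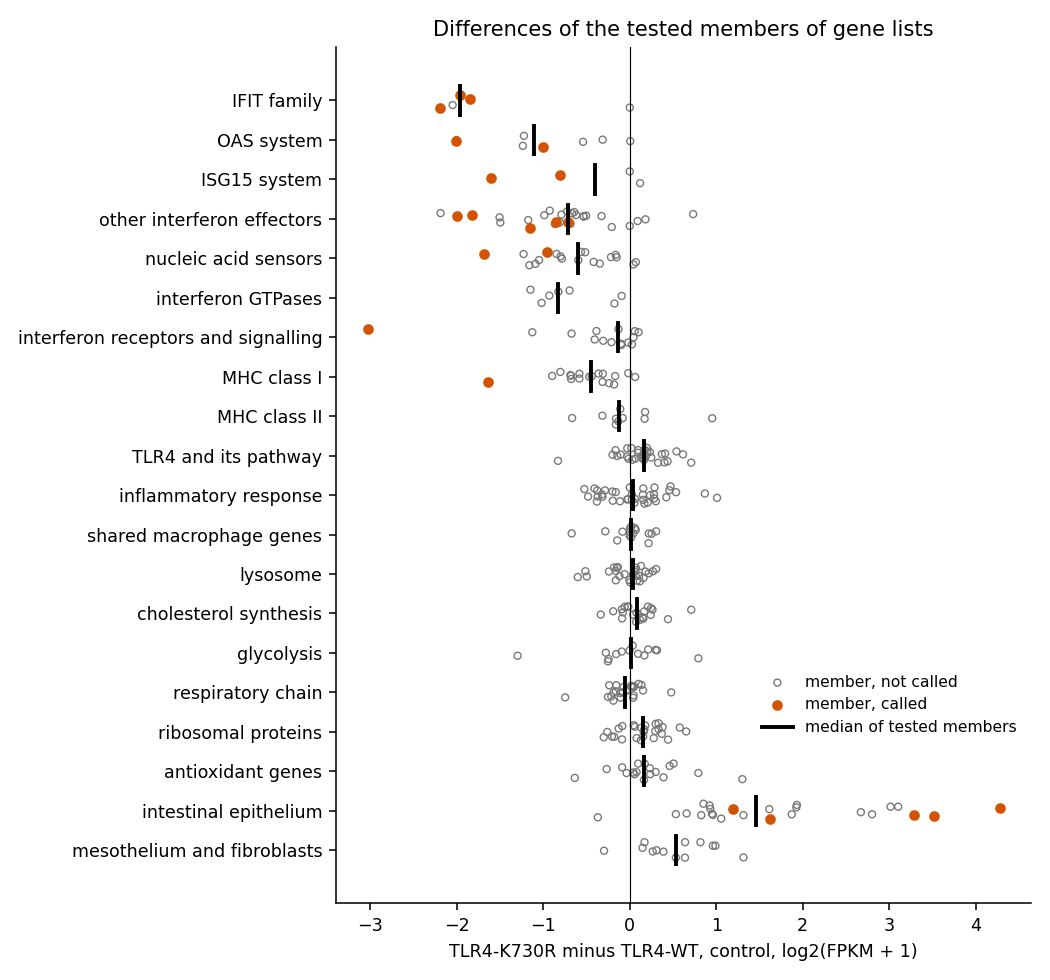
Differences (TLR4-K730R minus TLR4-WT, control, log2 scale) of the tested members of each gene list, 1 point per gene, with the list medians marked and called genes coloured. The interferon and MHC class I lists lie below 0 (median -0.79 for all interferon-stimulated genes), the intestinal list lies above 0 (median 1.46 over the 24 members that passed the filter, 0.87 over all 40 without it), and the lists of basic macrophage functions lie near 0.

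No gene of the inflammatory response list was called. Of 36 tested inflammatory response genes, limma called 0, with 2 lower and 3 higher at an unadjusted p under 0.05, and the median difference was 0.04. Il1b, which encodes interleukin 1β, was low in all 6 libraries, at 2.07, 2.06 and 3.33 FPKM in TLR4-WT and 4.83, 6.13 and 6.99 FPKM in TLR4-K730R, with every TLR4-K730R library above every TLR4-WT library (1.01, SE 0.26, adjusted p = 0.147). Ccl8, a monocyte chemokine gene, measured 2.12, 2.37 and 2.71 FPKM and 5.09, 5.39 and 5.07 FPKM, also without overlap (0.87, adjusted p = 0.122). Ccl5, a chemokine gene that responds to both NF-κB and interferon regulatory factors, measured 80.2, 76.2 and 82.2 FPKM and 64.1, 66.2 and 49.9 FPKM (-0.41, adjusted p = 0.48). These values did not pass the test. Nos2, which encodes the inducible nitric oxide synthase, was near or at 0, with 0, 0 and 0.807 FPKM in TLR4-WT and 0.814, 0.989 and 0.524 FPKM in TLR4-K730R.

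Genes of the TLR4 complex and its signalling had 0 of 31 members called by limma, with 1 lower and 6 higher at an unadjusted p under 0.05 and a median of 0.16. Nfkbia, which encodes IκBα, the inhibitor of NF-κB and itself an NF-κB target, measured 58.97, 53.6 and 64.2 FPKM in TLR4-WT and 75.4, 79.9 and 84.7 FPKM in TLR4-K730R (0.44, SE 0.10, adjusted p = 0.0755). Its libraries did not overlap, but the difference missed the threshold. Myd88, the adaptor shared by most Toll-like receptors, measured 30.1, 30.1 and 29.2 FPKM and 28.6, 28.5 and 25.9 FPKM. Ly96, which encodes the co-receptor MD-2, varied within TLR4-WT, at 10.5, 3.14 and 7.16 FPKM, and was 10.1, 12.99 and 9.92 FPKM in TLR4-K730R (adjusted p = 0.585). Cd180, which encodes a TLR4-related receptor, stood at -0.83 (adjusted p = 0.579), Ikbke at 0.37 (adjusted p = 0.424) and Ikbkg at 0.61 (adjusted p = 0.48).

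The identity and alternative activation of the macrophages gave few differences. Genes of resident peritoneal macrophages had 0 of 12 members called by limma, with 4 lower and 0 higher at an unadjusted p under 0.05 and a median of -0.07. Prg4, a proteoglycan gene of the resident cells, measured 12.4, 10.9 and 10.3 FPKM in TLR4-WT and 1.86, 5.56 and 7.17 FPKM in TLR4-K730R (adjusted p = 0.409), and Vsig4, a complement receptor gene, stood at -0.87 (adjusted p = 0.235). Monocyte-derived cell genes had 0 of 9 called by limma, with 1 lower and 2 higher at an unadjusted p under 0.05. The latter were Hp, which encodes haptoglobin, at 256, 254 and 294 FPKM in TLR4-WT and 428, 453 and 408 FPKM in TLR4-K730R (0.68, adjusted p = 0.0469), and Plac8, at 0.5401, 0.897 and 0.736 FPKM and 3.93, 4.49 and 2.98 FPKM (1.47, adjusted p = 0.0469). Both were separated between the genotypes without reaching the threshold. Among 12 alternative activation genes limma called 0, with 3 lower and 2 higher at an unadjusted p under 0.05. Fcna, a ficolin gene, measured 46.97, 50.7 and 52.3 FPKM in TLR4-WT and 27.99, 24.4 and 31.6 FPKM in TLR4-K730R (-0.82, adjusted p = 0.036). Mrc1, which encodes the mannose receptor, differed by -0.32 (adjusted p = 0.558).

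No member was called by limma in the lists of complement, Fc receptors, cholesterol synthesis, cholesterol efflux and lipid handling, glycolysis, the respiratory chain, ribosomal proteins, lysosome, antioxidant response, iron, protein folding stress, immediate early response or cell cycle. Their median differences lay between -0.14 for complement and 0.17 for the antioxidant response. At an unadjusted p under 0.05 the counts lower and higher were 2 and 1 of 9 for complement, 2 and 0 of 7 for Fc receptors, 3 and 0 of 17 for efflux and lipid handling, 2 and 0 of 27 for the lysosome and 1 and 4 of 18 for the antioxidant response. They were 0 and 2 of 14 for glycolysis, 1 and 0 of 24 for the respiratory chain, 0 and 3 of 26 for ribosomal proteins, 0 and 1 of 17 for folding stress and 1 and 0 of 12 for immediate early genes. For cholesterol synthesis (21), iron (10) and cell cycle (22) both counts were 0. Ctsk, which encodes the lysosomal protease cathepsin K, came closest to the threshold, at 175, 193 and 179 FPKM in TLR4-WT and 112, 117 and 129.8 FPKM in TLR4-K730R (-0.60, adjusted p = 0.0432). Hmox1, haem oxygenase, differed by 0.30 (SE 0.23).

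The 5 genes called higher are all genes of the gut epithelium. Reg3b (ENSMUSG00000071356, chr6:78370657-78373466), an antibacterial C-type lectin gene, measured 0, 0.0761 and 0 FPKM in TLR4-WT and 11.7, 22.6 and 24.98 FPKM in TLR4-K730R (4.27, SE 0.65, adjusted p = 0.00463). Its relative Reg3g (chr6:78466269-78468872) was listed at 0 in TLR4-WT and at 6.24, 15.3 and 11.6 FPKM in TLR4-K730R (3.51, SE 0.55, adjusted p = 0.00632), and the pair may share reads. Lypd8, which keeps flagellated bacteria off the colon surface, was listed at 0 in TLR4-WT and at 12.1, 7.77 and 7.12 FPKM in TLR4-K730R (3.29, SE 0.48, adjusted p = 0.00386). The mucus genes Muc3 and Fcgbp were likewise listed at 0 in TLR4-WT, with 2.49, 1.98 and 1.79 FPKM and 1.47, 1.39 and 1.02 FPKM in TLR4-K730R (1.62 and 1.19, adjusted p = 0.00759 for both). No fold is given against values listed at 0. These genes passed the filter of 1 FPKM through the groups where they are high, so their calls are a description. With no filter, Lypd8 and Fcgbp were called, while Reg3b (adjusted p = 0.0119), Reg3g (0.0141) and Muc3 (0.0119) were not. None of the 5 was called without each control library in turn, while 10 of the 26 called genes were.

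Of the 40 intestinal genes, 24 passed the filter of 1 FPKM, which many did through the libraries where they are high, so counts and medians over these 24 lean upward by construction. Of them, 5 were called higher and 0 lower, and 21 were higher at an unadjusted p under 0.05. The median difference was 1.46 over the 24 and 0.87 over all 40 genes with no filter. It was 3.02 over the 9 genes that passed 5 FPKM, and it was 4.07 over the 24 with a pseudocount of 0.1. All TLR4-K730R libraries were above all TLR4-WT libraries for 23 of the 24, where 8.91% of all tested genes were separated that way. The reverse held for Lyz1 (39.7, 32.1 and 43.4 FPKM in TLR4-WT, 27.4, 29.2 and 31.4 FPKM in TLR4-K730R), a lysozyme of Paneth cells that can share reads with the macrophage gene Lyz2. Epcam, the epithelial adhesion molecule, was listed at 0 in all TLR4-WT libraries and at 1.497, 0.771 and 1.04 FPKM in TLR4-K730R. Vil1, which encodes the brush border protein villin, was listed at 0 in TLR4-WT and at 1.76, 0.0875 and 0 FPKM in TLR4-K730R. Krt8, a keratin gene, was above 0 in both groups, at 2.802, 2.26 and 2.32 FPKM in TLR4-WT and 10.02, 6.99 and 6.18 FPKM in TLR4-K730R (1.31, adjusted p = 0.148). Lgals4, a galectin gene of the gut, measured 0.237, 0.594 and 0.118 FPKM and 21.4, 22.7 and 1.19 FPKM (adjusted p = 0.245), with library 3 of TLR4-K730R far below the other two. Fabp1 and Guca2b, genes of enterocytes, were listed at 0 in TLR4-WT and at 5.78, 6.94 and 3.81 FPKM and 2.78, 3.37 and 2.37 FPKM in TLR4-K730R (adjusted p = 0.034 and 0.0383).

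**Figure D4:**
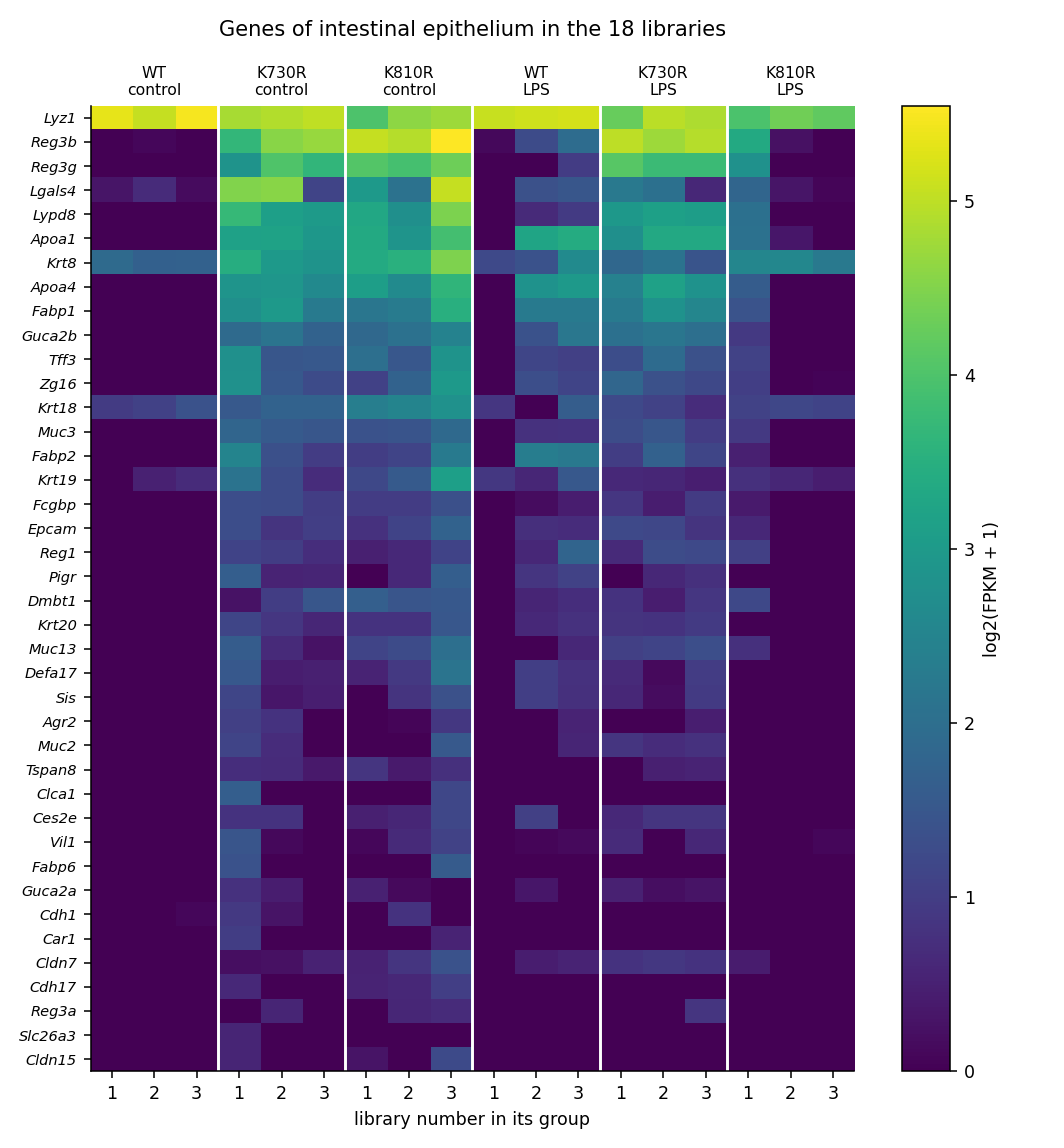
Log2(FPKM + 1) of 40 intestinal epithelial genes (rows) in all 18 libraries (columns, grouped by genotype and treatment). The TLR4-WT control libraries hold 4 to 6 of the genes above 0 and the TLR4-K730R control libraries 27 to 39, while among LPS libraries both high and low counts occur within TLR4-WT. The list was written with earlier results of these data known.

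In the LPS libraries the intestinal signal varied within TLR4-WT. The number of the 40 genes above 0 was 5, 26 and 29 in TLR4-WT and 29, 30 and 33 in TLR4-K730R after LPS, so TLR4-WT library 1 held few and libraries 2 and 3 many. The summed level of the interferon-stimulated genes in these TLR4-WT libraries was 11940, 12160 and 8363 FPKM. In TLR4-K730R after LPS it was 7998, 7233 and 11400 FPKM. In TLR4-K810R after LPS, 22, 7 and 7 of the 40 genes were above 0, and the interferon-stimulated sums were 7296, 7259 and 6938 FPKM. In the control libraries of TLR4-K810R, 30, 34 and 37 of the 40 genes were above 0, and their summed interferon-stimulated level was 860.4, 800.2 and 836 FPKM.

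Among markers of other cells the lavage could hold, Retnlg and Bst2 were called. Mast cell genes had 0 of 5 called by limma, with 3 lower and 0 higher at an unadjusted p under 0.05, and their summed level was 5.32, 5.11 and 6.24 FPKM in TLR4-WT and 1.44, 3.09 and 0.517 FPKM in TLR4-K730R, without overlap. Cpa3, the mast cell carboxypeptidase, measured 0.542, 1.28 and 0.565 FPKM in TLR4-WT and was listed at 0 in TLR4-K730R. Neutrophil genes had Retnlg as the only called member of 7, with 2 lower and 1 higher at an unadjusted p under 0.05 and a median of 0.10. S100a8, the abundant calprotectin gene, measured 32.3, 32.6 and 22.1 FPKM in TLR4-WT and 38.4, 40.7 and 34.5 FPKM in TLR4-K730R, without overlap. Mesothelial and fibroblast genes had 0 of 13 called by limma, with 0 lower and 4 higher at an unadjusted p under 0.05. Their median difference was 0.53. All TLR4-K730R libraries were above all TLR4-WT libraries for 9 of the 13, where 8.91% of all tested genes were separated that way. This list shares Krt8, Krt18 and Krt19 with the intestinal list. Col1a1, collagen of fibroblasts, measured 17.8, 11.8 and 4.87 FPKM in TLR4-WT and 21.9, 22.2 and 19.9 FPKM in TLR4-K730R, also without overlap. Dendritic cell genes had 1 of 5 called, Bst2, which is also an interferon-stimulated gene. B cell genes had 0 of 4 called by limma and a median of -0.35, with 1 lower and 1 higher at an unadjusted p under 0.05. Lists for T and NK cells, eosinophils, endothelium and platelets, erythroid cells, adipocytes, lung epithelium, and pancreas and liver had 1 to 5 tested members each and 0 called by limma, with 1 lower at an unadjusted p under 0.05 in the T and NK cell list and 1 in the adipocyte list. The part of these cells in the other differences was not tested.

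To see whether the genes called lower stood apart in the other mutant too, the TLR4-K810R control libraries were set beside them. This comparison uses the same TLR4-WT control libraries, which favours values below 0 for the 21 genes by their choice. Their range and the values of 4 of them are therefore given as a description, without a count of shared calls. The 21 genes ranged from -2.79 to -0.61 in TLR4-K810R minus TLR4-WT, with a median of -1.44. The median over all genes was 0.07, and 1.58% of all genes were called, 0.649% lower and 0.927% higher. Irf7 measured 18.3, 14.3 and 13.02 FPKM in TLR4-K810R (-2.75, adjusted p = 0.000387), beside -3.03 in TLR4-K730R. Ifit3 measured 4.17, 3.91 and 3.597 FPKM (-2.79) beside -2.19, and Zbp1 6.88, 6.09 and 6.99 FPKM (-1.66) beside -1.69. H2-M2 measured 1.45, 1.65 and 3.25 FPKM (-2.54) beside -1.64. Tested against each other, unstimulated TLR4-K730R and TLR4-K810R macrophages had 8 called genes (0.0824%). Of the 21 genes called lower, limma called 0 here, 5 were higher in TLR4-K730R than in TLR4-K810R at an unadjusted p under 0.05 and 0 were lower. Of all 9707 genes, 347 were higher and 666 lower at that level. The TLR4-K730R control libraries that chose the 21 genes enter this comparison too, so these counts are a description. The differences of the 21 genes lay between -0.29 and 0.91 with a median of 0.14, the highest for H2-M2 (adjusted p = 0.0367). A difference that misses the threshold does not show that the mutants are alike.

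Of the 8 genes that differed between the mutants, 7 were higher in TLR4-K730R (0.0721% of genes), namely Ccl8, Marco, Hp, Ccl5, Ptges, Retnla and Ass1. Fewer genes were called with only the groups compared or with only the control libraries, as given in the closing section. Marco, a scavenger receptor for bacteria, measured 135, 136 and 152 FPKM in TLR4-WT, 105, 109 and 111 FPKM in TLR4-K730R and 39.2, 29.6 and 42.3 FPKM in TLR4-K810R (1.54, adjusted p = 3.59e-05). Hp measured 197, 164 and 165 FPKM in TLR4-K810R, below both of the other genotypes (1.29, adjusted p = 0.000509), and Ccl8 measured 1.19, 1.79 and 0.417 FPKM there (1.59, adjusted p = 0.00312). In Ccl5 the order was TLR4-WT, TLR4-K730R and then TLR4-K810R at 22.1, 18.5 and 19.2 FPKM (1.54, adjusted p = 0.000113). Bcar1, a docking protein of integrin signalling, was lower in TLR4-K730R, at 1.35, 1.47 and 1.35 FPKM against 3.44, 3.36 and 4.29 FPKM in TLR4-K810R (-0.97, adjusted p = 0.0066).

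The genes called lower at rest were then compared between the genotypes after LPS. The LPS comparison shares no library with the control comparison. Irf7 measured 889.8, 778 and 823 FPKM in TLR4-WT and 679.8, 861 and 929.8 FPKM in TLR4-K730R after LPS, with overlapping ranges. Ifit3 measured 538, 545 and 386 FPKM and 393, 344 and 552 FPKM, and Zbp1 243, 240.2 and 238 FPKM and 231, 227 and 244 FPKM. In Ifit3 the value of library 3 was the lowest of TLR4-WT and the highest of TLR4-K730R. With all libraries, limma called 0 of 9707 genes (0%), with 226 higher and 520 lower at an unadjusted p under 0.05, and 2 of the 21 genes were lower and 0 higher at that level. The median of the 21 was -0.08, beside -0.04 over all genes, with a range of -0.68 to 0.14. Of the 71 interferon-stimulated genes, limma called 0, 10 were lower and 0 higher at an unadjusted p under 0.05, 63 had differences below 0, and the median was -0.27.

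Without LPS library 3 of both genotypes, limma called 66 genes higher and 95 lower in TLR4-K730R after LPS. Of the 21 genes, Ifi27l2a was called (-1.44, SE 0.22, adjusted p = 0.0023), 8 were lower and 0 higher at an unadjusted p under 0.05, and the median was -0.21. Of the 71 interferon-stimulated genes, 9 were called lower, 34 were lower and 0 higher at an unadjusted p under 0.05, 66 had differences below 0, and the median was -0.58. The 2 LPS libraries were left out because each resembled the other genotype, and they were also the TLR4-WT library with the lowest and the TLR4-K730R library with the highest summed interferon-stimulated level after LPS. Leaving them out therefore favours lower values in TLR4-K730R by construction, so these values are a description only and their adjusted p cannot be read as a test. Oas1a stood at -0.62 (adjusted p = 0.0111), Mx1 at -1.01 (adjusted p = 0.0142) and Ifit3 at -0.56 (adjusted p = 0.0147). Both libraries are kept here as labelled.

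The response of these genes to LPS was also set beside the values at rest. In TLR4-WT, whose control libraries enter both comparisons, the response of the 21 genes ranged from -2.40 for Cdk18 to 5.23 for Mx1 with a median of 2.32, where 10.4% of all genes were called higher. Without LPS library 3 of both genotypes it ranged from -2.38 to 5.59 with a median of 2.42. The difference between the LPS responses, TLR4-K730R minus TLR4-WT, was called for 4 of 9707 genes (0.0412%), all positive. It contains the control libraries that chose the members, so its sign is partly fixed by that choice. Ifit3 rose by 3.84 in TLR4-WT and 5.84 in TLR4-K730R (difference 1.99, SE 0.23, adjusted p = 0.00103). Oas3 rose by 1.44 and 3.55 (difference 2.11, adjusted p = 0.0012), Zbp1 by 3.33 and 4.97 (difference 1.65, adjusted p = 0.00015) and H2-M2 by 2.32 and 4.10 (difference 1.78, adjusted p = 0.00535). Without LPS library 3 of both genotypes, 30 genes were called (15 in each direction). The rises were then 4 and 5.64 for Ifit3, 1.55 and 3.42 for Oas3, 3.33 and 4.94 for Zbp1 and 2.32 and 4.16 for H2-M2 in TLR4-WT and TLR4-K730R. These 4 genes were among the 30, with differences of 1.64, 1.86, 1.61 and 1.83 (adjusted p = 0.000553, 0.00564, 0.00107 and 0.00818), a choice of libraries made on their values.

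**Figure D5:**
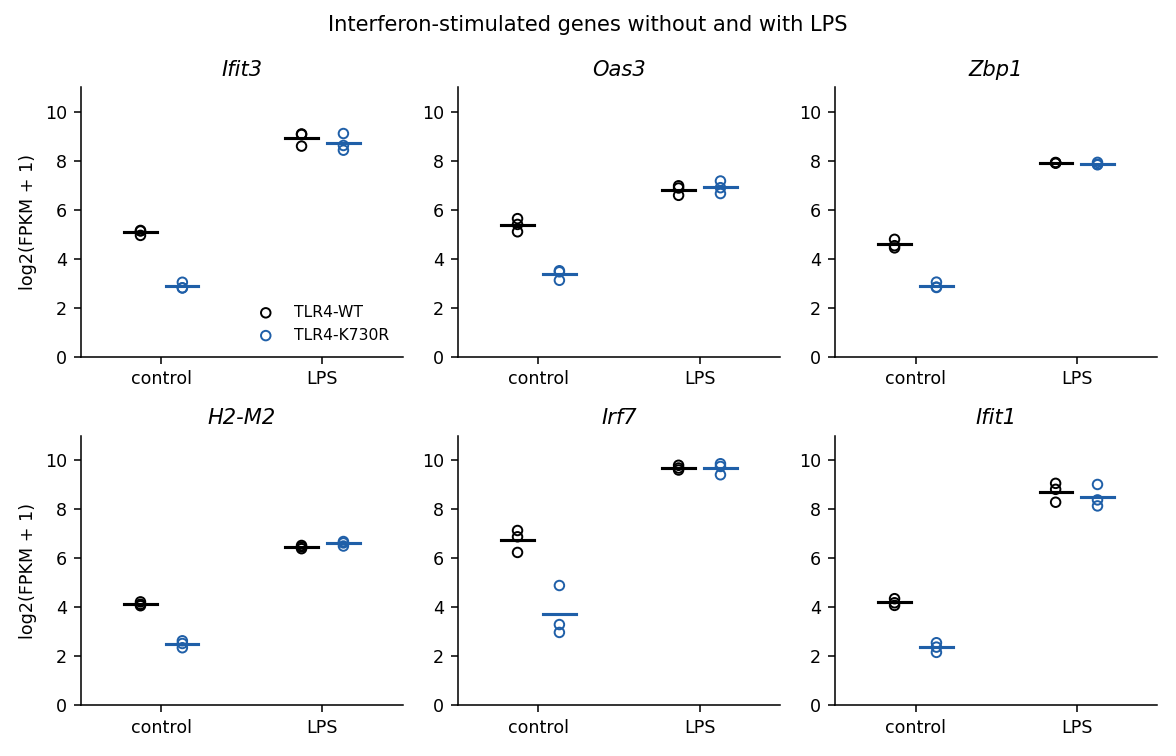
Log2(FPKM + 1) of Ifit3, Oas3, Zbp1, H2-M2, Irf7 and Ifit1 in TLR4-WT and TLR4-K730R libraries, control and after LPS, 1 circle per library and 1 bar per group mean. In control libraries, on which these genes were called lower, the genotypes do not overlap for any of the 6 genes. After LPS their ranges overlap for all 6, with Zbp1 between 227 and 244 FPKM in all 6 libraries.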

How the data were processed

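RNA-seq of mouse peritoneal macrophages comprised 18 libraries in 6 groups of 3, grouped by the sample labels. RNA was isolated on columns and sequenced commercially on an Illumina instrument. The authors deposited FPKM values for transcript events of 20 kinds, 1 table per library, in which unexpressed events are left out. The aligner, counting program and test are not given in the sources used here. The submitters' processing notes name the human build hg18, whereas the coordinates match GRCm38, where 92.5% of rows overlap the gene they name and 14126 of 14138 gene numbers are found in GENCODE.

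FPKM was summed per gene over first-exon events and over last-exon events on its strand and within its span, and the larger sum was taken. This left out 5.99% of FPKM, and a gene with events missing at both ends gets a partial value. The 9707 genes that reached 1 FPKM in 3 or more of the 18 libraries entered limma 3.58.1 (R 4.3.3) on log2(FPKM + 1), all groups in one fit, with trended empirical Bayes and adjustment after Benjamini and Hochberg, at an adjusted p below 0.01. The design assumed gene values, and the unit is here the FPKM of events. Values and figures were made with Python 3.11.15, pandas 2.3.3 and matplotlib 3.10.9. The test was checked on simulated data.

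The members and the gene lists were chosen with earlier results of these data known. Named are the genes called in the first comparison, Tlr4, members of the TLR4 complex and macrophage lists, and in each other list up to 5 members with the highest mean and up to 3 with the largest difference. Genes named beyond this rule, namely Ass1, Bcar1, Ptges, Ccl9, Cmpk2, Ifi27, Epcam, Vil1, Fabp1, Guca2b and Socs3, and those of the closing observations, were chosen after their values were seen. The values of some list members are not reported here. Alternatives changed the pseudocount, the low-value filter, the scaling, the trend, weights and blocks of the model, the gene value, the libraries and the threshold. Promoter sequences are from RefSeq.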

Additional observations from a re-analysis of the deposited data

Results flagged for a closer look

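A set of 4 genes differed between the genotypes in their response to LPS, all with a larger rise in TLR4-K730R than in TLR4-WT (limma, adjusted over 9707 genes). The difference of responses on the log2 scale was 1.99 for Ifit3 (adjusted p = 0.00103), 2.11 for Oas3 (adjusted p = 0.0012), 1.65 for Zbp1 (adjusted p = 0.00015) and 1.78 for H2-M2 (adjusted p = 0.00535). All 4 started lower in the unstimulated TLR4-K730R libraries, which are part of this difference.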

How the results depend on the processing

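Of the 26 genes called between unstimulated TLR4-K730R and TLR4-WT macrophages, Ifit1, Ifit3, Ly6e, Oas1a and Zbp1 were called in each of the 15 other settings in which they were tested and without each of the 6 libraries. The median of the interferon-stimulated list stayed between -0.90 and -0.71 over the settings. That of the intestinal list, 1.46 over 24 genes, was 0.87 with no filter (40 genes), 3.02 at 5 FPKM (9 genes), 2.3 with sums within 1.1 times (10 genes) and 4.07 with a pseudocount of 0.1. The counts moved more. Leaving out 1 control library at a time gave 11 to 16 calls, 0 to 3 of them higher and 11 to 14 lower. Library weights gave 61 (15 higher and 46 lower), an adjusted p below 0.05 gave 51 (11 higher and 40 lower), and genes with sums over first and over last exons within 1.1 times of each other gave 10 (2 higher and 8 lower), where only 2294 genes were tested. A fit of only the groups compared gave 9 higher and 11 lower, with 9 of the 26 genes and 7 intestinal genes among these 20, and the filter at 5 FPKM and the median-of-ratios scaling each gave 3 higher. Without LPS library 3 of TLR4-WT and TLR4-K730R, an alternative added after the data were seen, 42 genes were called, 35 of them lower. The direction of Rnf213 turned with first-exon events only, to 1.465. Other causes of these changes were not tested.

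Replicate numbers did not pair the libraries, since same-numbered libraries deviated together at correlations of 0.02, -0.0382 and -0.0418. With a replicate block the count was 11 (1 higher and 10 lower) between TLR4-K730R and TLR4-WT, 3 for the difference between LPS responses and 5 between TLR4-K730R and TLR4-K810R.

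For the difference between LPS responses, 4 genes in the report, the count was 2 with last-exon events only, 2 with only the groups compared, 0 with both sums within 1.1 times, 7 at an adjusted p below 0.05 and 30 without the LPS libraries 3, and 3 to 5 with 1 library left out. Between the mutants, 8 genes in the report, it was 20 without a filter, 17 with library weights, 5 with first-exon events only, 1 with only the groups compared, 45 at an adjusted p below 0.05, 26 without the LPS libraries 3, 3 with only control libraries, which was also added later, and 3 to 11 with 1 library left out.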

Other observations

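Between an adjusted p of 0.01 and 0.05 lay 25 further genes, 19 lower and 6 higher in unstimulated TLR4-K730R macrophages, and some of those outside the lists are named here after their values were seen. Of the 19 lower genes, 12 are in no interferon list. Znfx1, a helicase that senses viral RNA at mitochondria, measured 43.5, 43.1 and 44.5 FPKM in TLR4-WT and 20.9, 24.1 and 14.3 FPKM in TLR4-K730R (-1.14, limma adjusted p = 0.0205). Helz2, a helicase co-activator gene, varied little between libraries, at 11.1, 10.9 and 11.02 FPKM and 7.21, 6.91 and 6.95 FPKM (-0.58, limma adjusted p = 0.0377). Ly6i, a neighbour of Ly6e in the Ly6 family, measured 9.32, 12.5 and 10.5 FPKM and 4.87, 6.08 and 3.02 FPKM (-1.09, limma adjusted p = 0.0469).

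Other genes of this range have other roles. Ccl9, a chemokine gene of myeloid cells, measured 86.2, 104 and 70.7 FPKM in TLR4-WT and 53.1, 48.3 and 49.5 FPKM in TLR4-K730R (-0.76, limma adjusted p = 0.0103). Dck, the deoxycytidine kinase of nucleotide salvage, measured 9.54, 12.2 and 9.31 FPKM and 4.38, 4.58 and 4.97 FPKM (-1.001, limma adjusted p = 0.0192), and Lrmda 16.1, 15.02 and 11.2 FPKM and 4.23, 4.73 and 1.69 FPKM (-1.79, limma adjusted p = 0.0208). Among the higher genes, Ltc4s, the synthase of the cysteinyl leukotriene LTC4, measured 12.5, 13.4 and 12.4 FPKM in TLR4-WT and 31.9, 32.2 and 21.02 FPKM in TLR4-K730R (1.07, limma adjusted p = 0.0152). Lgals2, a galectin gene also made by gut epithelium, was listed at 0 in TLR4-WT and at 1.15, 1.31 and 1.12 FPKM in TLR4-K730R (limma adjusted p = 0.0437). The libraries of the genotypes did not overlap for any gene named here.

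A group of 14 genes was listed at 0 in all TLR4-WT control libraries and at 1 FPKM or more in all TLR4-K730R control libraries, namely Lgals2, Prap1, Lypd8, Tff3, Reg3g, Apoa4, Apoa1, Rbp2, Guca2b, Muc3, Fcgbp, Zg16, Fabp1 and Defa24. The reverse held for 2 genes, Fen1 and AI839979. Of 613 tested genes on chromosome 4, which carries Tlr4, 0 were called by limma, and of 357 on chromosome 19, 3 were called, all of them IFIT genes. The share called over all tested genes was 0.268%, so few calls could be found among 613 genes in any case.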
